A study of Sus scrofa with 5 samples.

Results

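The genes described here are the Wnt ligands, their receptors and co-receptors, the R-spondins with their receptors, the secreted Wnt antagonists and 4 intracellular genes of the pathway, measured in large and small ovarian follicles of the pig. They were chosen by symbol: protein-coding genes of the WNT, FZD, SFRP, DKK and RSPO families, with LRP5, LRP6, CTNNB1, AXIN2, LGR4, LGR5, TCF7, LEF1, WIF1 and FRZB. The rule found 51 genes among the 30822 listed in each file. Of these, 35 had an FPKM (fragments scaled to gene length and to the library total) of 1 or more in at least 2 libraries and were tested, and 16 were under this filter. Follicles were taken from females of the Indian Ghoongroo pig breed. Large follicles gave 3 libraries and small follicles 2, and the labels name no treatment beside follicle size. The labels call the replicates biological but give no follicle diameter, no age or number of animals and no word on pooling. The p-values therefore rest on the spread among these 5 libraries, which may be technical in part. Library totals, worked back from the FPKM steps, were between 9523739 and 11507527 fragments. A whole follicle holds granulosa, theca, vessel and blood cells and the oocyte. In such bulk RNA, fewer cells of a type and less RNA per cell cannot be told apart.

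Wnt proteins are secreted, lipid-modified ligands that bind a Frizzled receptor (FZD) together with the co-receptor LRP5 or LRP6. In the canonical branch this stops the breakdown of beta-catenin, encoded by CTNNB1, which then enters the nucleus and acts with the DNA-binding factors TCF7 and LEF1 and their relatives. R-spondins (RSPO) bind LGR receptors and keep Frizzleds at the cell surface, while secreted frizzled-related proteins (SFRP, with FRZB) and WIF1 bind Wnt ligands, and DKK1, DKK2 and DKK4 bind the LRP co-receptors. In mice, WNT4 and RSPO1 act in the development of the female gonad, and Wnt signals in granulosa cells take part in follicle growth.

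RNA of the secreted antagonist SFRP4 was much higher in large follicles, and SFRP4 was the 1 gene of the set to pass the test across all genes. It reached the filter's level of 1 FPKM in the 3 large follicle libraries only, so it entered the test through the group where it is high, and with no filter it did not pass (limma adjusted p = 0.13). SFRP4 rose 9.66-fold, and its relative SFRP2 averaged 3.43 times its small follicle mean without passing the test. The values of the ligand WNT4, the transcription factor TCF7 and the antagonist DKK4 lay lower in every large follicle library than in either small one, and none of these 3 genes passed the test. DKK4 reached 1 FPKM in small follicle libraries only, so it too entered the test through the group where it is high. The test was limma's moderated test on log2(FPKM + 1), where 1 is the pseudocount, with Benjamini-Hochberg adjustment over all 13087 genes tested. Genes with an adjusted p under 0.05 count as called. Differences are large minus small on this scale, where low genes appear to change less than they do. An FPKM mean carries its SD after ±, and a log2 difference its SE. Of all genes tested, 0.978% were called. Among the 35 Wnt genes tested, 1 was called higher and 0 were called lower. At an unadjusted p under 0.05 limma found 8 of the 35, against 10.4% of all genes tested. Of the 8, 2 were higher and 6 lower, where all genes tested gave 4.76% and 5.67%. Without small follicle replicate 2, DKK4 and FZD9 fell under the filter, and 33 Wnt genes were tested. The other lower genes, CTNNB1, LRP5, TCF7, WNT4 and WNT6, then had log2 differences of -0.39, -0.45, -0.83, -0.65 and -0.94. With all libraries these were -0.63, -0.66, -0.88, -0.72 and -0.91. The fit without small follicle replicate 2 leaves 1 small follicle library, so only effect sizes are given for these genes. They do not show whether the count of 8 holds without replicate 2. A limma voom fit on fragment counts also called SFRP4 alone among the 35 Wnt genes. The groups did not overlap for 15 of the 35, against 26.1% of all genes tested. Of these 15, 3 lay higher and 12 lower in large follicles, where all genes tested gave 10.9% and 15.2%. The log2 difference was below 0 for 26 of the 35, against 60.1% of all genes tested, and for 18 of 33 without small follicle replicate 2. The median log2 difference was -0.25 over the 35 and -0.08 over all genes tested. Without small follicle replicate 2 these medians were -0.08 and 0.09, so the values of all genes moved as well.

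**Figure D1:**
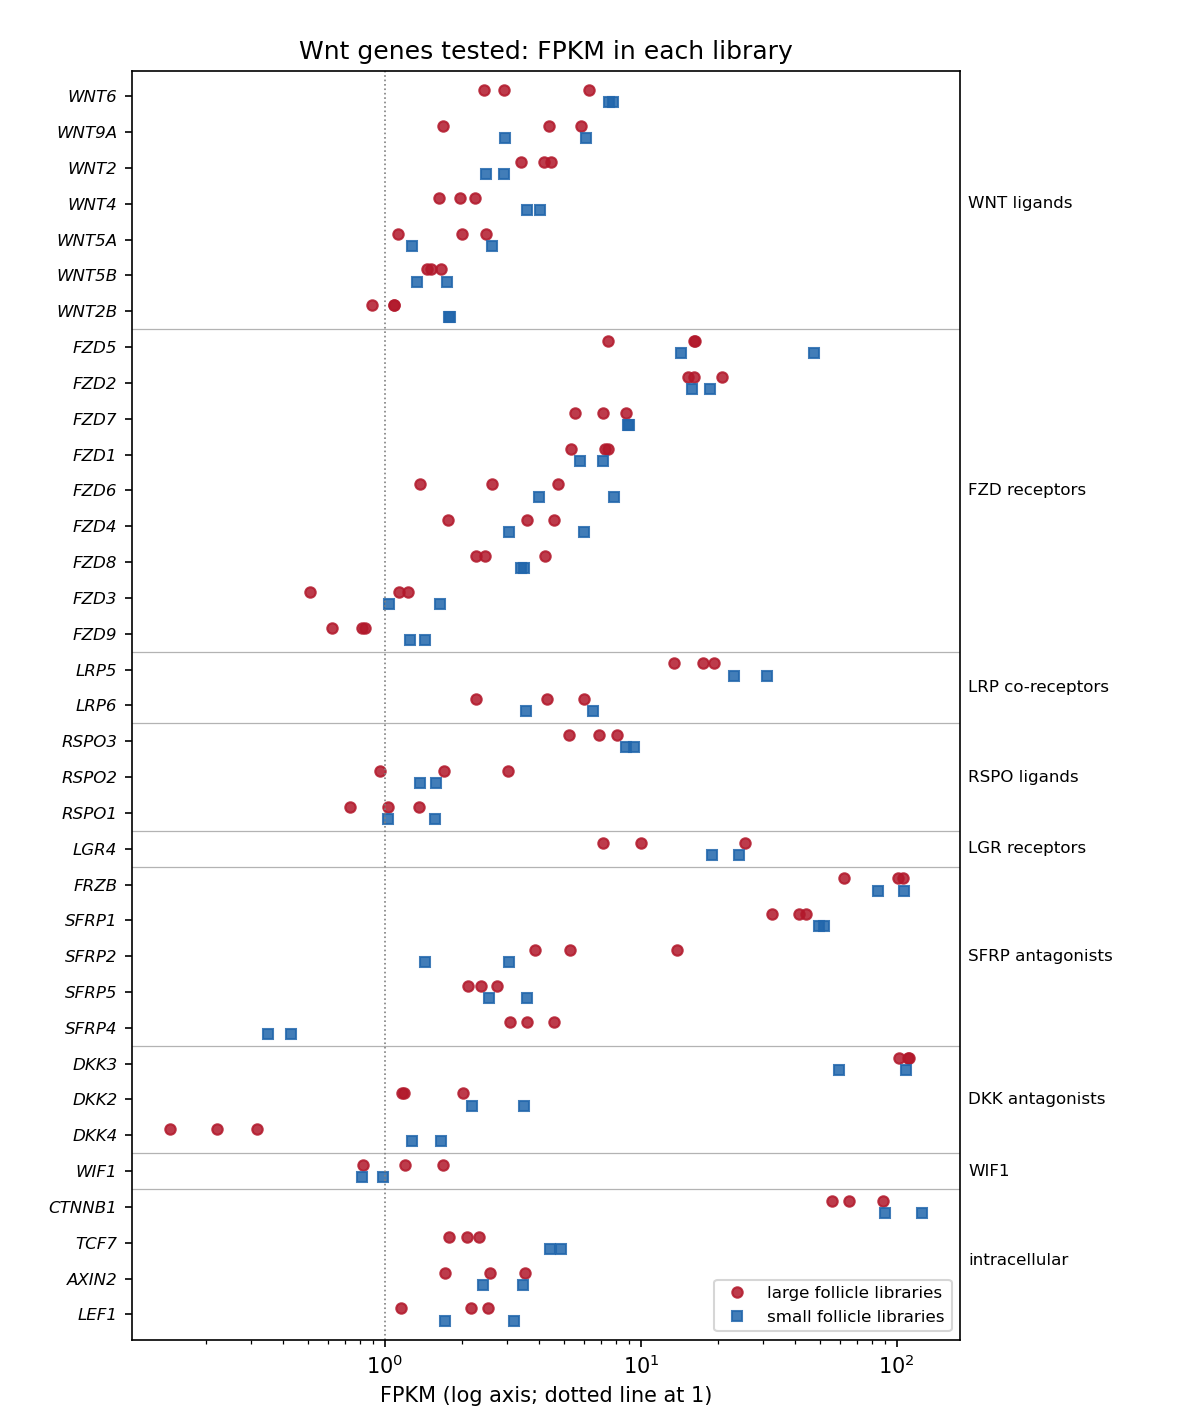
FPKM of the 35 Wnt genes tested (log axis), with 1 point per library: circles for the 3 large follicle libraries above squares for the 2 small follicle libraries, grouped by family. CTNNB1, DKK3, FRZB and SFRP1 sat highest, and SFRP4 and DKK4 had the widest gaps between the groups, in opposite directions.

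**Figure D2:**
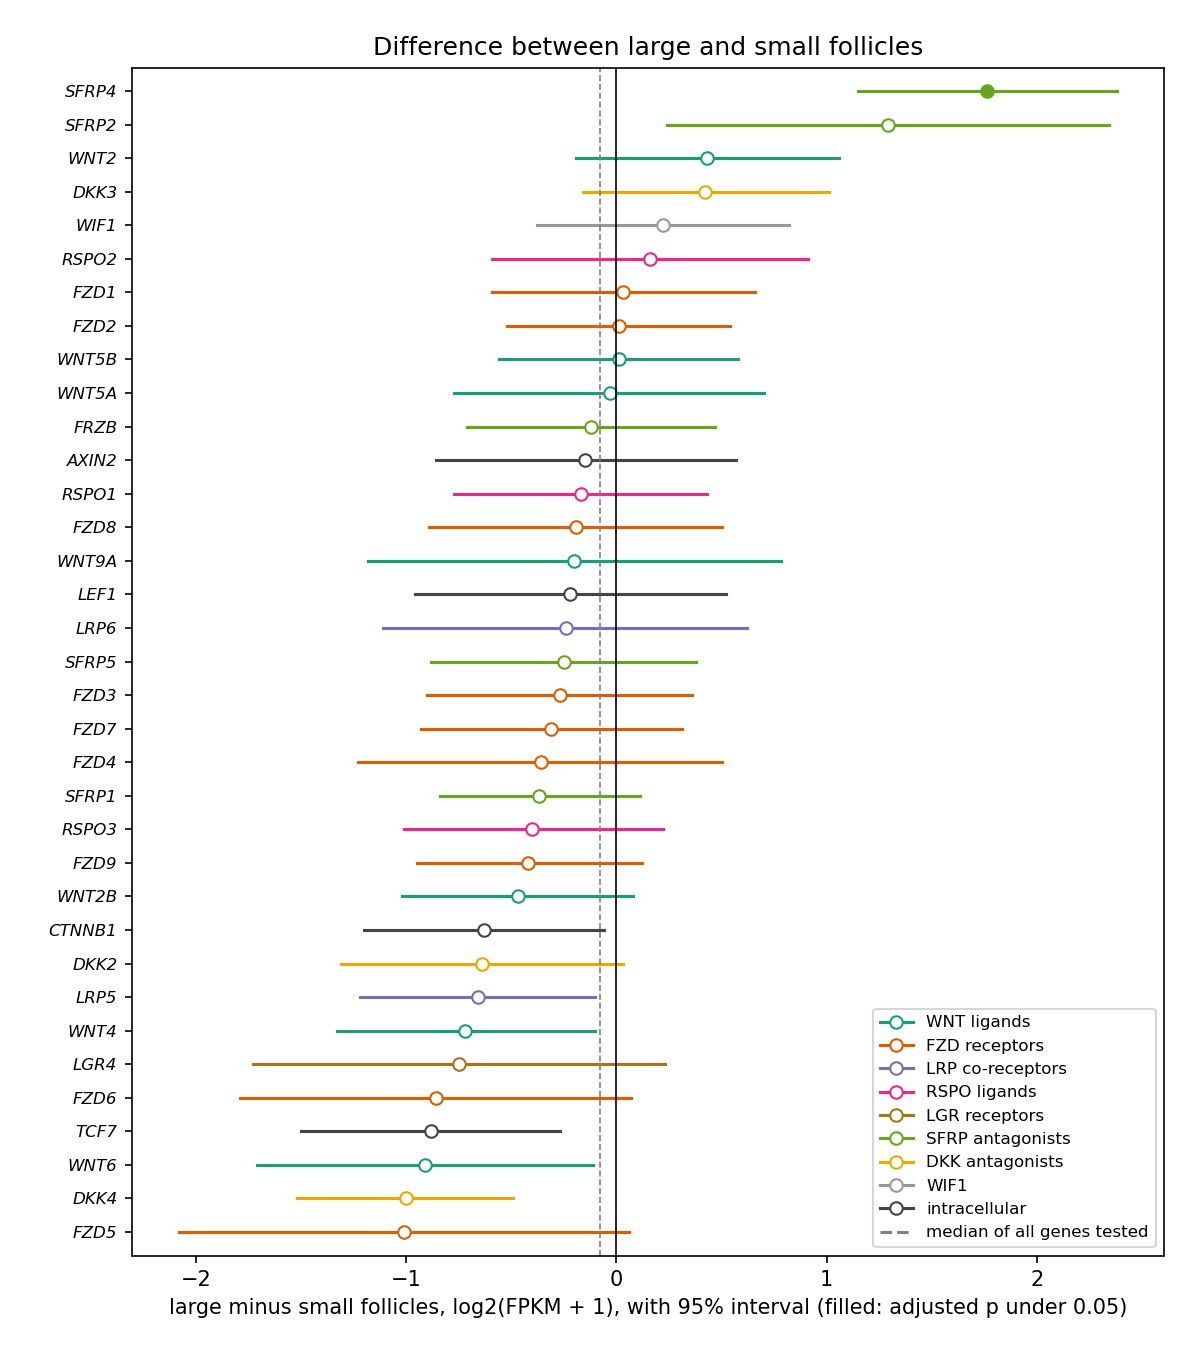
Difference between large and small follicles for each gene tested, on the log2(FPKM + 1) scale, with its 95% interval from limma; colours mark families, a filled point marks the called gene SFRP4 and the dashed line marks the median of all genes tested at -0.08. Most points lie left of 0, and most intervals include 0.

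The secreted frizzled-related proteins carry a frizzled-like domain that binds Wnt ligands outside the cell. SFRP4 (gene 100145890, Sscrofa11.1 chromosome 9, 108404314 to 108414335, minus strand) had 3.59, 3.09 and 4.56 FPKM in large follicle replicates 1, 2 and 3, against 0.428 and 0.348 FPKM in small follicle replicates 1 and 2. Behind these values stand 71, 53 and 82 fragments from large follicles, against 7 and 6 from small ones. The lowest large follicle library was several times above the higher small one. SFRP4 averaged 3.74 ± 0.749 FPKM (SD, n = 3) in large and 0.388 ± 0.0565 FPKM (SD, n = 2) in small follicles. The log2 difference was 1.76 ± 0.27, with a 95% interval of 1.15 to 2.38 and a limma adjusted p = 0.0194. In rodents SFRP4 is known from granulosa cells of follicles near ovulation and from the corpus luteum. The call was lost without large follicle replicate 1 (limma adjusted p = 0.0938), without either small follicle library (0.06 for replicate 1 and 0.0987 for replicate 2), with a replicate block (0.0901), and with no filter on low values. The log2 difference itself was between 1.64 and 1.86 whichever library was left out.

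SFRP2 (gene 100516027, chromosome 8, 75337311 to 75345926), which is expressed in the mesenchyme of many organs, had 3.87, 13.9 and 5.30 FPKM in large follicles, against 3.04 and 1.44 FPKM in small ones. Large follicle replicate 2 stood well above the other libraries, and large follicle replicate 1 was only slightly above the higher small one. The log2 difference was 1.29 ± 0.47 with an interval of 0.24 to 2.34, and the limma adjusted p was 0.343. The fold of 3.43 was 2.04 when large follicle replicate 2 was left out and 5.33 when small follicle replicate 1 was.

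The abundant members of the family differed little. FRZB had 101, 62.3 and 106 FPKM in large follicles, against 84.7 and 107 FPKM in small ones, and its groups overlapped. SFRP1 had 41.5, 32.7 and 44.2 FPKM in large follicles, against 51.8 and 49.7 FPKM in small ones, without overlap. Its log2 difference was -0.37 ± 0.21 with an interval of -0.84 to 0.11 (limma adjusted p = 0.642). SFRP5 had 2.12 to 2.74 FPKM in large and 2.55 to 3.59 FPKM in small follicles. FRZB and SFRP1 made up most of the family's summed FPKM in every library, and SFRP4 remained a minor part of it. SFRP4 took 2.36%, 2.69% and 2.81% of the family's summed FPKM in large follicles, against 0.298% and 0.216% in small ones. Within each large follicle library SFRP4 was above SFRP5, at ratios of 1.51, 1.13 and 2.15, and within each small follicle library it was far below it, at 0.119 and 0.136. SFRP2 stood to SFRP5 at 1.63, 5.08 and 2.50 in large follicles, against 0.848 and 0.565 in small ones. Such ratios within a library do not depend on how libraries are scaled to each other. The pairs were chosen after their values were seen, so the ratios are a description.

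**Figure D3:**
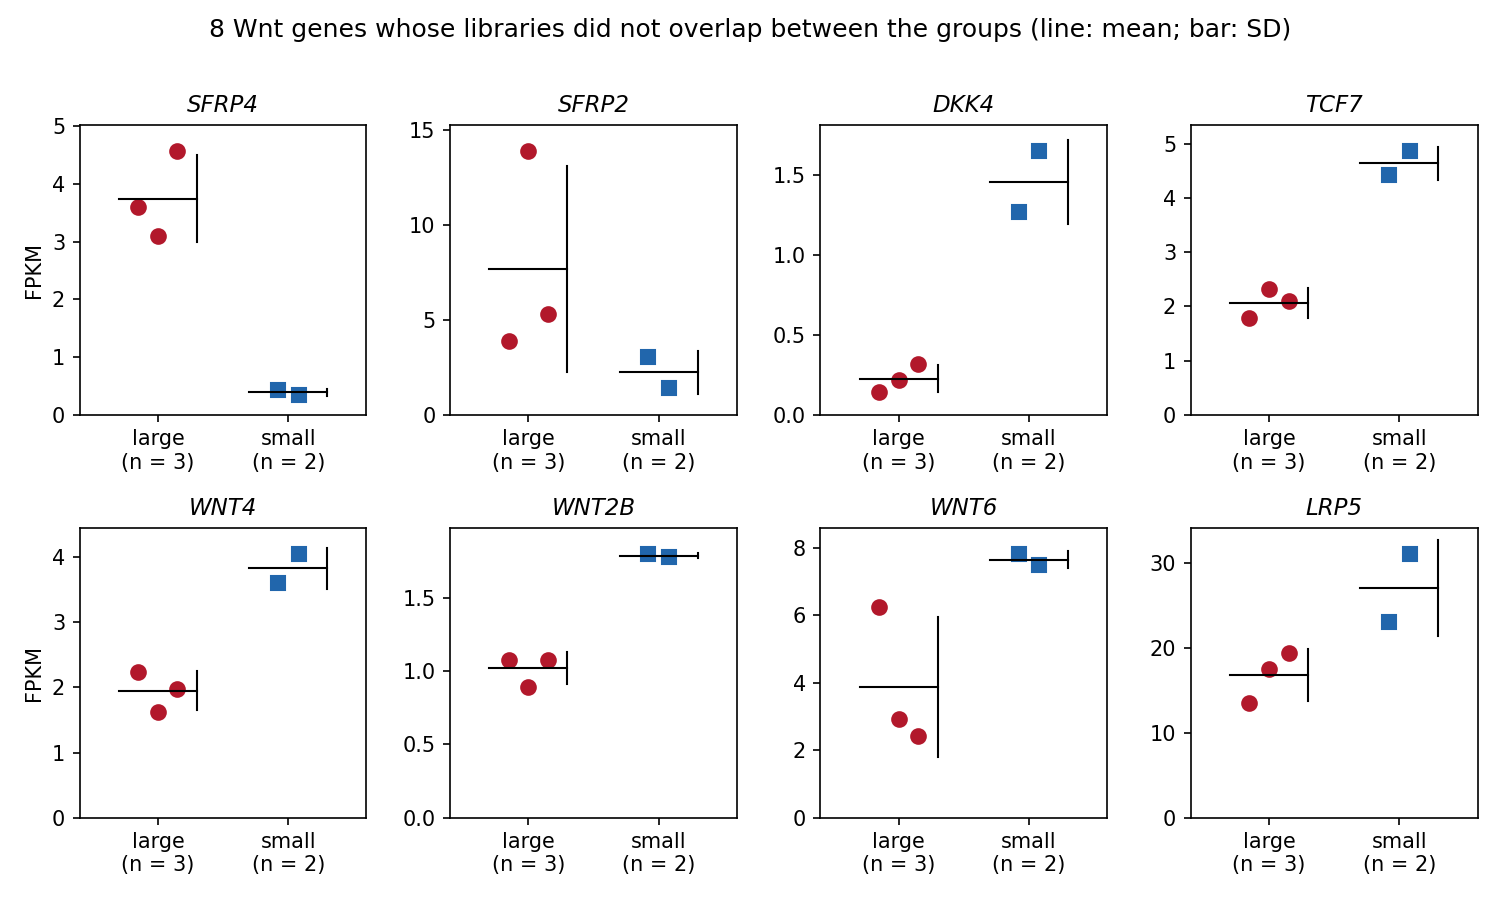
FPKM by library for 8 of the 15 Wnt genes whose libraries did not overlap between the groups, with large follicles at the left of each panel; horizontal lines are group means and vertical bars the SD (n = 3 and n = 2). SFRP4 and SFRP2 lie higher in large follicles, with SFRP2 spread from 3.87 to 13.9 FPKM, and the other 6 lie lower.

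The Dickkopf genes went in different directions. DKK4 (gene 106508176, chromosome 17, 11389551 to 11394754), an LRP-binding antagonist that is itself a Wnt target in some human cells, had 0.144, 0.221 and 0.316 FPKM in large follicles, against 1.27 and 1.65 FPKM in small ones. These are 3, 4 and 6 fragments from large follicles, against 22 and 30 from small ones. Every large follicle library was several times below both small follicle libraries, a 6.44-fold lower mean. DKK4 reached 1 FPKM in the 2 small follicle libraries only, so it entered the test through the group where it is high. The log2 difference was -1.0 ± 0.23 with an interval of -1.52 to -0.49 (limma adjusted p = 0.0915). On the fragments the limma voom log2 difference was -2.62 ± 0.55 (adjusted p = 0.0875), and the lowest adjusted p among its alternatives was 0.0581, with median-of-ratios scaling.

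DKK2, which binds LRP6 as DKK1 does, had 1.19, 1.17 and 2.01 FPKM in large follicles, against 2.18 and 3.48 FPKM in small ones. The groups did not overlap, but large follicle replicate 3 came close to small follicle replicate 1 (log2 difference -0.64 ± 0.30, limma adjusted p = 0.514). DKK3 is the divergent member of the family and is not a typical LRP ligand. It had the highest mean of the secreted antagonists in large follicles, and FRZB had the highest in small ones. DKK3 had 102, 112 and 111 FPKM in large follicles, against 59.6 and 109 FPKM in small ones. Small follicle replicate 1 alone was low, and without it the log2 difference was -0.01, against 0.42 ± 0.26 with all libraries. DKK1 had 1 fragment in 1 large and 1 small follicle library and 0 in the others. WIF1, a secreted Wnt-binding inhibitor, had 0.822, 1.20 and 1.68 FPKM in large follicles, against 0.813 and 0.985 FPKM in small ones, with overlapping groups.

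Wnt ligands were present at low levels, and 7 of 19 passed the filter, all with a mean under 10 FPKM. None of them was called. The values of WNT6, WNT4 and WNT2B were lower in every large follicle library, and those of WNT2 higher. WNT4 (gene 100327037, chromosome 6, 80110238 to 80138165), which mouse granulosa cells need for normal antral follicle growth, had 2.24, 1.63 and 1.97 FPKM in large follicles, against 3.60 and 4.05 FPKM in small ones. The groups were well apart and each was tight, at 1.95 ± 0.303 (SD, n = 3) and 3.83 ± 0.313 FPKM (SD, n = 2). The log2 difference was -0.72 ± 0.27 with an interval of -1.33 to -0.10 (limma adjusted p = 0.377). WNT6 (gene 100622044, chromosome 15, 120901471 to 120917359) had 6.25, 2.93 and 2.43 FPKM in large follicles, against 7.81 and 7.48 FPKM in small ones. Large follicle replicate 1 was near the small follicle level and the other 2 were far below it (log2 difference -0.91 ± 0.36, limma adjusted p = 0.398).

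WNT2B had 1.08, 0.892 and 1.08 FPKM in large follicles, against 1.80 and 1.78 FPKM in small ones (log2 difference -0.47 ± 0.25, limma adjusted p = 0.578). The gene lies wholly inside ST7L on the opposite strand, which had 5.10 to 11 FPKM in large and 6.42 to 10.5 FPKM in small follicles, and the labels name a stranded kit but not whether counting used the strand. WNT2 (chromosome 18, 28945825 to 28993969) had 4.44, 3.41 and 4.18 FPKM in large follicles, against 2.49 and 2.92 FPKM in small ones. Its groups did not overlap (log2 difference 0.43 ± 0.28, limma adjusted p = 0.693). WNT2 stood to WNT4 at 1.98, 2.09 and 2.12 within the large follicle libraries, against 0.691 and 0.721 within the small ones. The order of these 2 ligands was thus opposite in the groups, in each library; this pair too was chosen after its values were seen.

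**Figure D4:**
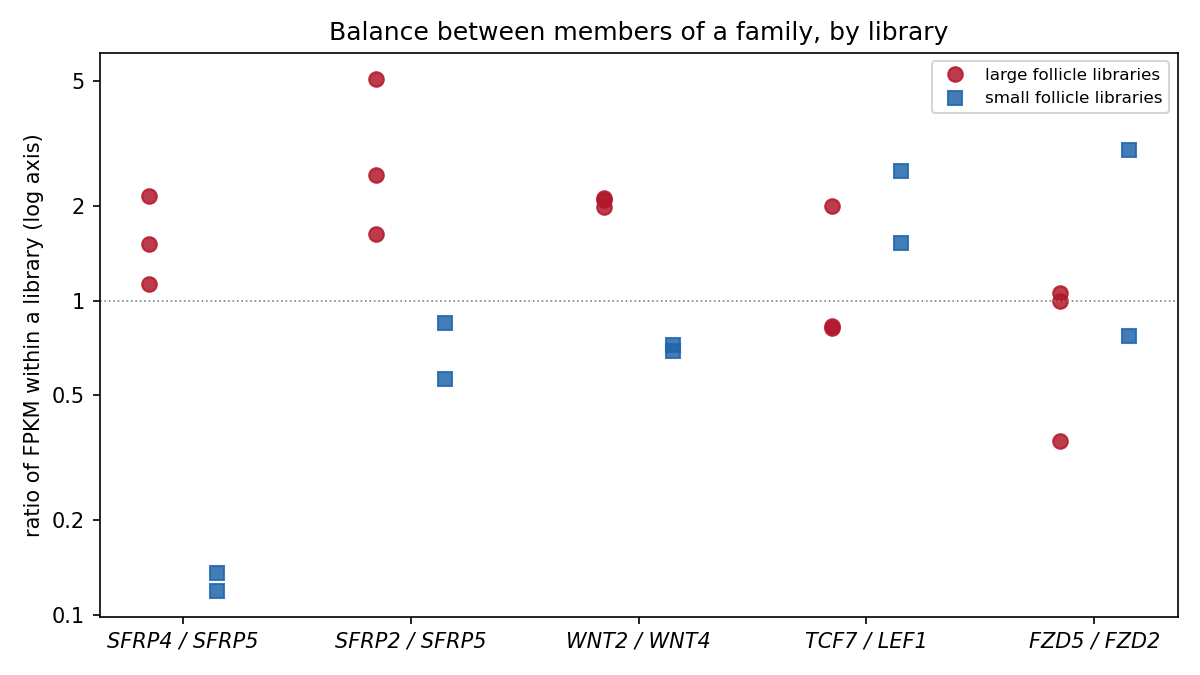
Ratio of the FPKM of 2 members of a family within each library (log axis, dotted line at 1), with large follicles as circles and small follicles as squares. The SFRP4 to SFRP5, SFRP2 to SFRP5 and WNT2 to WNT4 ratios lie above 1 in the 3 large follicle libraries and below 1 in both small ones, whereas the TCF7 to LEF1 and FZD5 to FZD2 ratios overlap between the groups.

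By mean level the ligands ran WNT2 at 4.01, WNT9A at 3.96 and WNT6 at 3.87 FPKM in large follicles, 3 values closer together than their SDs, before WNT4, WNT5A, WNT5B and WNT2B at 1.02 FPKM. In small follicles WNT6 led at 7.65 FPKM, followed by WNT9A at 4.53, WNT4 at 3.83 and WNT2 at 2.70 FPKM. WNT9A and WNT5A, the second a ligand of the beta-catenin independent branch, ranked the 5 libraries in the same order and overlapped between the groups. WNT9A had 4.36, 1.68 and 5.84 FPKM in large follicles, against 2.94 and 6.11 FPKM in small ones. WNT5A had 2.00, 1.12 and 2.48 FPKM in large follicles, against 1.28 and 2.63 FPKM in small ones. For both genes large follicle replicate 2 and small follicle replicate 1 were the low libraries. WNT5B was nearly flat, at 1.46 to 1.66 FPKM in large and 1.34 to 1.74 FPKM in small follicles; it overlaps FBXL14 on the opposite strand by 3149 bases.

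The other 12 ligands were under the filter. WNT11 was just outside it, with 0.328 to 0.582 FPKM in large and 0.787 and 1.35 FPKM in small follicles. The members just inside it were DKK4, WIF1 and FZD9, which reached an FPKM of 1 in 2 libraries. DKK4 and FZD9 did so in small follicles only and WIF1 in large follicles only, so with SFRP4 there were 4 tested genes that passed the filter through 1 group. WNT7A had 11, 19 and 15 fragments in large follicles, against 4 and 1 in small ones. WNT9B had 10, 9 and 9 fragments in large follicles, against 1 and 4 in small ones. Both pairs of groups were apart, and in the fit with no filter neither passed limma (adjusted p = 0.307 for WNT7A and 0.379 for WNT9B). WNT3 had 15, 16 and 15 fragments in large follicles, against 7 and 11 in small ones. WNT10B had 6 to 20 fragments and WNT7B 2 to 12 in the 5 libraries. WNT10A, WNT16, WNT8B, WNT3A and WNT1 had at most 4 fragments in any library. WNT8A had 0 fragments in all libraries, which allows up to 0.0411 to 0.0496 FPKM at 3 fragments, a limit for counting error only. Ligand genes lie in close pairs in the genome: WNT6 and WNT10A on chromosome 15 are 7844 bases apart, WNT9A and WNT3A on chromosome 2 are 25631 bases apart, WNT3 and WNT9B on chromosome 12 are 27848 bases apart, and WNT10B and WNT1 on chromosome 5 overlap by 3322 bases on opposite strands. In the first 2 pairs 1 gene was tested and the other had at most 4 fragments in any library, and in the other 2 pairs both genes were under the filter.

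Among the Frizzled receptors 9 of 10 were tested, none was called, and 7 had lower and 2 higher means in large follicles. FZD5 and FZD2 were the most abundant. FZD5 had 7.41, 16.3 and 16.2 FPKM in large follicles, against 14.4 and 47.6 FPKM in small ones. Small follicle replicate 2 stood far above the other 4 libraries, which overlapped (log2 difference -1.01 ± 0.48, limma adjusted p = 0.518). Without that library the fold of large over small was 0.923, against 0.430 with it. FZD2 had 15.3 to 20.7 FPKM in large and 15.8 and 18.7 FPKM in small follicles, a log2 difference of 0.01 ± 0.24 with an interval of -0.52 to 0.54. FZD6, a receptor of planar polarity signals, had 1.37, 2.61 and 4.73 FPKM in large follicles, against 3.99 and 7.88 FPKM in small ones (log2 difference -0.86 ± 0.42, limma adjusted p = 0.535). FZD7 had 5.55 to 8.79 FPKM in large and 8.93 and 9.01 FPKM in small follicles, and FZD9 had 0.623 to 0.838 FPKM in large and 1.25 and 1.44 FPKM in small follicles. These were the 2 Frizzleds without overlap, with limma adjusted p values of 0.803 and 0.639. FZD9 overlaps BAZ1B on the opposite strand by 1352 bases, and BAZ1B had 3.53, 7 and 9.05 FPKM in large follicles, against 9.28 and 12.3 FPKM in small ones, so the strand doubt stated for WNT2B holds here too.

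FZD4, which mice need for a working corpus luteum, had 1.76, 3.59 and 4.59 FPKM in large follicles, against 3.04 and 6 FPKM in small ones. FZD1, which takes part in cumulus expansion in mice, had 5.34 to 7.44 FPKM in large and 5.79 and 7.14 FPKM in small follicles; it lies inside MTERF1 on the opposite strand. FZD8 had 2.26 to 4.22 FPKM in large and 3.40 and 3.48 FPKM in small follicles, and FZD3 had 0.510 to 1.23 FPKM in large and 1.04 and 1.64 FPKM in small ones. All 4 overlapped between the groups. FZD10 was under the filter, with 0.311 to 0.990 FPKM in large and 0.681 and 0.82 FPKM in small follicles.

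The co-receptor LRP5 (gene 100524299, chromosome 2, 4533721 to 4653997) had 13.5, 17.5 and 19.4 FPKM in large follicles, against 23.1 and 31.1 FPKM in small ones. The groups did not overlap, and the mean was 1.61-fold lower in large follicles (log2 difference -0.66 ± 0.25, interval -1.22 to -0.10, limma adjusted p = 0.365). LRP6 was lower in level, at 4.29, 2.27 and 5.99 FPKM in large follicles, against 3.56 and 6.52 FPKM in small ones, with overlap.

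Of the R-spondins, RSPO3 was the most abundant, at 5.25, 6.89 and 8.08 FPKM in large follicles, against 8.75 and 9.38 FPKM in small ones. The groups did not overlap but nearly met (log2 difference -0.40 ± 0.27, limma adjusted p = 0.717). RSPO2, which oocytes secrete in mice, had 0.954, 3.02 and 1.70 FPKM in large follicles, against 1.58 and 1.37 FPKM in small ones. RSPO1 had 0.731 to 1.36 FPKM in large and 1.03 and 1.57 FPKM in small follicles. RSPO4 had 0 fragments in all libraries, which allows up to 0.299 to 0.362 FPKM at 3 fragments. The receptor LGR4 had 10, 7.13 and 25.6 FPKM in large follicles, against 19.0 and 24.2 FPKM in small ones. Large follicle replicate 3 lay above both small follicle libraries and the other 2 far below them (log2 difference -0.75 ± 0.44, limma adjusted p = 0.647). Without large follicle replicate 3 the fold of large over small was 0.397, against 0.660 with it. LGR5, a stem cell marker of epithelia that also marks ovarian surface epithelium in mice, had at most 3 fragments in any library.

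Inside the cell, CTNNB1 (gene 397657, chromosome 13, 25163550 to 25208314) was among the most abundant of the set, at 55.8, 65.3 and 88.6 FPKM in large follicles, against 90.4 and 126 FPKM in small ones. Large follicle replicate 3 almost reached small follicle replicate 1 (log2 difference -0.63 ± 0.25, interval -1.20 to -0.06, limma adjusted p = 0.412). TCF7 (gene 100512951, chromosome 2, 136422740 to 136456323) had 1.78, 2.33 and 2.10 FPKM in large follicles, against 4.43 and 4.86 FPKM in small ones. The groups were well apart, a 2.25-fold lower mean in large follicles (log2 difference -0.88 ± 0.27, interval -1.50 to -0.27, limma adjusted p = 0.242). Across the alternatives its adjusted p lay between 0.145 and 1. TCF7 is also a gene of T lymphocytes, and 6 T lymphocyte markers (CD3D, CD3E, CD3G, CD2, CD5 and CD8A) summed to 6.09 to 10.1 FPKM in large and 6.81 and 7.12 FPKM in small follicles. Of these 6 markers 4 were tested, with log2 differences of 0.28 for CD3E, 0.05 for CD3G, 0.03 for CD2 and 0.09 for CD5. Limma called 0 of them at an adjusted or an unadjusted p under 0.05. CD3D and CD8A, under the filter, had lower means in large follicles, at 0.668 against 0.944 FPKM and 0.21 against 0.331 FPKM. None of the 6 was at 0 in any library. LEF1 had 2.17, 1.16 and 2.53 FPKM in large follicles, against 1.72 and 3.20 FPKM in small ones. AXIN2, a direct target of beta-catenin and its feedback inhibitor, had 2.57, 1.72 and 3.53 FPKM in large follicles, against 2.42 and 3.46 FPKM in small ones. Both overlapped, and the log2 difference of AXIN2 was -0.15 ± 0.32 with an interval of -0.86 to 0.57. AXIN2 overlaps CEP112 on the same strand by 2925 bases.

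Summed over each family, the secreted antagonists far outweighed the ligands. The 5 SFRP genes summed to 152, 115 and 162 FPKM in large follicles, against 144 and 161 FPKM in small ones. The 19 WNT genes summed to 24.0, 15.6 and 21.5 FPKM in large follicles, against 22.8 and 29.1 FPKM in small ones. LRP5 and LRP6 summed to 17.8, 19.7 and 25.4 FPKM in large follicles, against 26.7 and 37.6 FPKM in small ones. This was, with the 4 intracellular genes, 1 of 2 sums without overlap, and its exact permutation p of 0.1 (two-sided, over 10 splits) is the smallest these 5 libraries can give. Over the 7 sums compared, the exact permutation p-values adjusted by Benjamini-Hochberg were 0.42 to 0.9, a design that cannot pass 0.05. The Frizzleds summed to 49.4, 54.4 and 64.5 FPKM in large follicles, against 61.6 and 100 FPKM in small ones, and the DKK genes with WIF1 to 104, 114 and 116 FPKM in large follicles, against 64.0 and 115 FPKM in small ones. SFRP, FRZB, DKK and WIF1 together stood to the WNT ligands at 10.7, 14.7 and 12.9 within the large follicle libraries, against 9.09 and 9.49 within the small ones. This ratio was computed after the sums were seen. Its groups did not overlap, and its exact permutation p was 0.2 (two-sided, over 10 splits). DKK3 and FRZB make up most of its upper part.

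**Figure D5:**
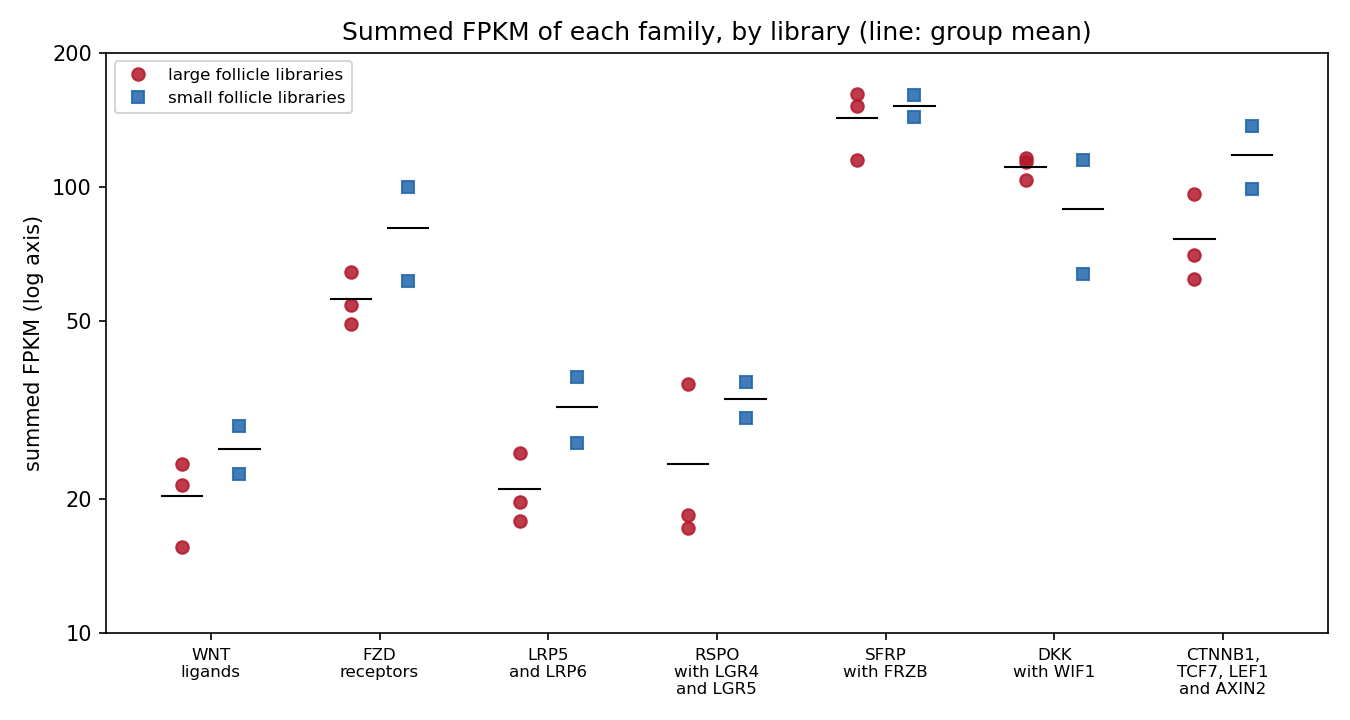
Summed FPKM of each family (log axis) in the 3 large follicle libraries (circles) and the 2 small follicle libraries (squares), with lines at the group means. SFRP with FRZB and DKK with WIF1 lie highest at 64.0 to 162 FPKM and overlap between the groups, while LRP5 with LRP6 and the 4 intracellular genes lie lower in all 3 large follicle libraries.

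Other genes of the pathway were not called in either direction: 0 of 58 tested genes from 5 lists passed limma over all genes tested. In these lists log2 differences were above 0 for 8 and below 0 for 50 genes (86.2%, against 60.1% of all genes tested). An unadjusted limma p under 0.05 was found for 4 of the 58 (6.9%, against 10.4% of all genes tested). Among genes of Wnt secretion and extracellular control, 2 of 11 had higher and 9 lower means in large follicles. WLS, which carries Wnt ligands to the cell surface, had 13.9, 14.2 and 18.3 FPKM in large follicles, against 20.8 and 20.4 FPKM in small ones (log2 difference -0.40 ± 0.23, limma adjusted p = 0.634). NDP, a ligand of FZD4 that is not a Wnt, had 13.6, 3.94 and 6.83 FPKM in large follicles, against 21.3 and 11.4 FPKM in small ones (log2 difference -1.01 ± 0.44). TRABD2B, a Wnt-cleaving protease, had 2.78 to 4.66 FPKM in large and 4.41 and 7.34 FPKM in small follicles.

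Of the genes of receptor turnover and feedback, 1 of 6 had a higher and 5 a lower mean. The feedback inhibitors NKD1 and NKD2 went opposite ways: NKD1 had 1.43, 1.49 and 1.89 FPKM in large follicles, against 1.06 and 0.984 FPKM in small ones, and NKD2 had 2.82, 3.12 and 2.55 FPKM in large follicles, against 5.61 and 3.37 FPKM in small ones. Neither passed, with log2 differences of 0.36 ± 0.25 and -0.49 ± 0.30. CCND1, a cyclin and a beta-catenin target in several tissues, had 4.65 to 5.84 FPKM in large and 6.18 and 7.40 FPKM in small follicles. Of the planar polarity and noncanonical genes, 2 of 12 had a log2 difference above 0 and 10 below 0. The atypical cadherin CELSR2 had 0.546, 0.776 and 0.777 FPKM in large follicles, against 1.61 and 2.33 FPKM in small ones (log2 difference -0.80 ± 0.25). VANGL1 and PRICKLE1, core proteins of planar polarity, had 0.782 to 1.18 and 1.23 to 1.91 FPKM in large follicles, against 1.51 to 1.85 and 2.58 to 3.23 FPKM in small ones. In each of these 3 genes, named for the smallest p of their list, the groups did not overlap. Of the 12 genes tested in that list, 1 lay higher and 4 lower without overlap, where all genes tested gave 10.9% and 15.2%.

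Of the destruction complex and dishevelled genes, 2 of 17 had higher and 15 lower means. DVL3, which carries the signal from Frizzled, had 16.3, 18.6 and 20.2 FPKM in large follicles, against 23.2 and 29.1 FPKM in small ones (log2 difference -0.48 ± 0.22). TNKS, a tankyrase that marks axin for breakdown, had 1.53 to 2.35 FPKM in large and 2.72 and 3.38 FPKM in small follicles. FRAT1, which binds GSK3, had 0.915 to 1.41 FPKM in large and 0.580 and 0.587 FPKM in small follicles. Of the nuclear partners, 1 of 12 had a higher and 11 a lower mean. BCL9, a co-activator that binds beta-catenin, had 14.8, 12.0 and 20.5 FPKM in large follicles, against 23.1 and 36.6 FPKM in small ones (log2 difference -0.87 ± 0.29). CTBP1, a co-repressor, had 23.4, 23.5 and 24.0 FPKM in large follicles, against 30.6 and 36.7 FPKM in small ones, and TLE3, a co-repressor of TCF factors, had 4.06 to 6.26 FPKM in large and 6.54 and 10.8 FPKM in small follicles.

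Markers of follicle cells and of other cell types also differed in level between some libraries, with 2 of them called (INHBB and CYP17A1), and their part in the differences above was not tested. Of 8 granulosa markers 1 had a higher and 7 lower means in large follicles, and 1 (INHBB, lower) was called. Their sum, which INHA dominates, was 4857 to 12273 FPKM in large and 3686 and 5011 FPKM in small follicles. Theca markers had higher means for 3 of 6, with CYP17A1 called, and summed to 1743 to 3667 FPKM in large and 695 and 1061 FPKM in small follicles. The 5 fibroblast markers, of which 3 had higher and 2 lower means, summed to 2198 to 3598 FPKM in large and 2256 and 2642 FPKM in small follicles, and 0 were called by limma at an adjusted or at an unadjusted p under 0.05. Of the smooth muscle markers 4 of 5 had higher means, and they summed to 3692 to 4488 FPKM in large and 3095 and 3110 FPKM in small follicles. Of the endothelial markers 6 of 8 had higher means, with sums of 264 to 287 FPKM in large and 243 and 244 FPKM in small follicles. All 6 myeloid markers had higher means, with sums of 136 to 200 FPKM in large and 86.3 and 95.4 FPKM in small follicles. All 4 red cell markers had higher means, with sums of 1006 to 1680 FPKM in large and 234 and 703 FPKM in small follicles. In these 4 lists limma called 0, and 9 of 23 (39.1%) had an unadjusted p under 0.05, against 10.4% of all genes tested. The 9 were 4 red cell, 3 myeloid, 1 endothelial and 1 smooth muscle marker. The smooth muscle marker was MYH11, lower in large follicles (log2 difference -0.77 ± 0.26). Of the surface epithelium markers, UPK3B and LRRN4 were at 0 in 1 library each, and the 5 in the files summed to 6.35 to 16.7 FPKM in large and 10.1 and 14.7 FPKM in small follicles, mostly from KRT8. KRT19 had 1.65, 4.87 and 1.87 FPKM in large follicles, against 0.265 and 0.503 FPKM in small ones, and KRT7 had 0.65, 2.35 and 2.00 FPKM in large follicles, against 0.419 and 0.547 FPKM in small ones. KRT8 had 4.02, 9.31 and 5.48 FPKM in large follicles, against 13.7 and 8.98 FPKM in small ones. These 3 were the tested markers of that list, and each had an unadjusted but no adjusted limma p under 0.05 (adjusted p = 0.153 for KRT19, 0.45 for KRT7 and 0.47 for KRT8). The 8 oocyte markers summed to 47.3 to 65.3 FPKM in large and 27.8 and 40 FPKM in small follicles, with FIGLA at 0 in small follicle replicate 1. The 4 B lymphocyte markers summed to 3.09 to 4.03 FPKM in large and 3.48 and 4.04 FPKM in small follicles, with MS4A1 at 0 in 2 large follicle libraries. The mitochondrial share of fragments was 3.10% to 6.37% in large and 4.24% and 8.56% in small follicles, with the higher values in large follicle replicate 2 and small follicle replicate 1, the libraries that were low for WNT9A and WNT5A.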

How the data were processed

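RNA of 5 libraries was sequenced, and the authors deposited FPKM per gene, per the file headers. Tools listed in the submitters' processing notes, without roles, are featureCounts 1.5.0-p3, StringTie 1.3.3, HISAT2 2.0.5, Trimmomatic 0.38 and FastQC 0.11.4, and the build is Sscrofa11.1. The kit was a stranded one for mRNA, per the labels' protocols. Groups and replicate numbers came from the titles. Library totals and whole fragments were worked back from the smallest FPKM steps: 49.5% of the 23353 genes above 0 gave whole fragments, within 0.001, with the listed length, and the others with the shortest other length that did, so low fragment numbers are uncertain. Of the 51 Wnt genes, 28 fitted the listed length and 51 matched a RefSeq gene table, the source of chromosome numbers.

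The 13087 genes that reached an FPKM of 1 in 2 libraries or more entered limma 3.58.1 in R 4.3.3, on log2(FPKM + 1) with a mean-variance trend, no covariate beside group, and Benjamini-Hochberg adjustment. Every tested Wnt gene is named, and of each other pathway list up to 3 genes with the smallest p; the genes and lists were chosen with earlier results of these data known. CELSR1, CSNK1E, TLE1, TLE5 and MSLN were not analysed here. The comparison on the 13087 genes was simulated in 20 runs, with 200 changed genes each. The changed genes were drawn only from genes with a mean of 20 fragments or more. The fit recovered 20.9% of 2-fold, 96.1% of 4-fold and 100% of 8-fold changes, and 6.93% of calls were false. These recovered shares do not cover genes with fewer fragments. No libraries of a group agreed within sampling noise (chi-square per degree of freedom at least 28.5). Alternatives were pseudocounts of 0.1 and 5, no filter, a mean FPKM of at least 5, 2 scalings, a replicate block, limma voom on the fragments, and leaving out each library in turn.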

Additional observations from a re-analysis of the deposited data

How the results depend on the processing

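Of 13 alternatives, 7 kept SFRP4 called, and its log2 difference was above 0 in the 12 that tested it. The count of Wnt genes called was 0 with no filter, 0 at a mean FPKM of at least 5 (which leaves SFRP4 out) and 0 to 1 with each library left out (0 without large follicle replicate 1 or either small follicle library). Genes called in all were 128, and 32 with no filter, 41 at a mean FPKM of at least 5, 202 with median-of-ratios scaling, 69 with voom, and 29 to 284 with each library left out (29, 284 and 207 without large follicle replicates 1, 2 and 3, and 74 and 61 without small follicle replicates 1 and 2). The median over tested Wnt genes was -0.45 to -0.08 with each library left out, and that of all genes tested was -0.25 to 0.09. The Wnt median minus that of all genes was -0.29 to -0.12 in these fits, against -0.16 with all libraries. The replicate numbers carry no stated pairing. Correlations of same-numbered deviations were 0 and -0.45, but they cannot decide on pairing. The deviations of the 2 small follicle libraries mirror each other, so large follicle replicate 2 had 0.45 and -0.45 with them. With the replicate block 0 Wnt genes were called, SFRP4 had a limma adjusted p of 0.0901, and the median was -0.45. Replicate 3 exists in large follicles only, so the block takes up that library. The block's log2 difference for SFRP4, 1.64, equals that without large follicle replicate 3. With scaling to a common sum the median of all genes was -0.19, against -0.08, and 66 genes were called higher and 86 lower, against 70 and 58; there FZD2, FZD1 and WNT5B changed sign, to -0.11, -0.08 and -0.07. FZD1 was -0.04 with the replicate block, and WNT5A was 0.03 with median-of-ratios scaling.

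With each library left out, log2 differences crossed 0 for 12 genes: FZD2 (-0.12 to 0.12), WNT9A (-0.62 to 0.23), FRZB (-0.29 to 0.12), DKK3 (-0.01 to 0.85), RSPO2 (-0.11 to 0.42), WNT5A (-0.37 to 0.30), AXIN2 (-0.34 to 0.05), FZD4 (-0.76 to 0.03), LRP6 (-0.60 to 0.12), FZD1 (-0.10 to 0.17), LEF1 (-0.54 to 0.09) and WNT5B (-0.10 to 0.12). The log2 ratio of sums ran from -0.19 to 0.05 for SFRP with FRZB and from -0.05 to 0.80 for DKK with WIF1. The cause of these changes was not tested. Of the 35 Wnt genes 22 had a mean under 5 FPKM. Few fragments stood behind some of these, such as DKK4 with 3 to 30 and RSPO2 with 8 to 22 in a library. Others had many, such as LRP6 with 217 to 625. Whether low levels limited the calls was not tested.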
